A study of Mus musculus with 2 samples.

Results

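Follicular B cells are the mature, recirculating B cells that pass between blood and the follicles of lymphoid organs, and the cells described here are those among the leukocytes of the mouse adrenal gland that carried the transcripts of that state. The mice were C57Bl/6 and 7 weeks old. Live CD45+ leukocytes had been sorted from digested adrenal glands, and their RNA was counted cell by cell in droplets. The female mice gave 1 library and the male mice another. The labels name no treatment and no altered allele for either library, and they do not say how many animals were pooled. Of 6648 deposited cell barcodes, 6319 had at least 200 detected genes and at most 15% mitochondrial counts of unique molecular identifiers (UMIs), and these were kept. A B cell gate then required at least 3 UMIs of Cd79a and Cd79b, the signalling chains of the B cell receptor, with at most 1 UMI of the T cell genes Cd3d, Cd3e and Cd3g and at most 2 of the macrophage genes C1qa, C1qb and C1qc. It held 776 cells. A gate cell was a follicular B cell where the UMIs of Ighd, the IgD heavy chain, and Fcer2a, the low-affinity IgE receptor CD23, summed to at least 1 and to no less than the UMIs of Mzb1, Zcwpw1 and Bhlhe41, which mark innate-like B cells. By this rule 492 of the 776 gate cells were follicular B cells, 316 in the female and 176 in the male library. The remaining gate cells were 169 female and 63 male cells in which the second sum was larger, called innate-led B cells below, and 31 female and 21 male cells with no UMI of either sum. Cells without any Cd79a or Cd79b UMI, 2993 female and 2097 male, are called non-B cells, and 308 female and 145 male cells fell in none of these classes.

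Mature B cells carry IgM and IgD made from the same rearranged heavy chain gene by alternative splicing, together with a kappa or a lambda light chain. The transcription factors EBF1 and PAX5 hold the B cell programme, CCR7 and CXCR5 guide recirculating cells into lymphoid organs, and the receptor for the cytokine BAFF keeps them alive. Innate-like B cells, of which B-1 cells are the best known, sit mainly in body cavities, renew themselves and secrete natural antibody.

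The female library held 16218309 UMIs over 3963 barcodes and the male library 9512670 UMIs over 2685, and no barcode had fewer than 500 UMIs. The follicular B cells were shallow, with a median of 2057 UMIs and 870 genes in the female and 1657.5 UMIs and 732 genes in the male library. The median was 4990 and 3552 UMIs in the innate-led B cells and 3710 and 3234 UMIs in the non-B cells. Xist, the RNA of the inactive X chromosome, gave 1357 UMIs in the female and 0 in the male follicular B cells, and the Y-linked genes Ddx3y and Eif2s3y gave 0 and 0 against 26 and 31, so the cells carried the sex of their labels. The libraries shared 2 barcodes, of which 1 was a male and 0 were female follicular B cells.

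Levels below are the UMIs of a gene summed over the cells of a class in a library, scaled by all UMIs of that class to CPM, with exact Poisson 95% intervals. Ratios between classes are those of the CPM, with exact binomial 95% intervals, and log2 ratios were taken after adding 10 CPM to both sides. Because each sex had a single library, differences have no replicate check, no p-value is given, and all intervals cover counting error only. The interval of a difference between shares is Newcombe's.

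The promoters of some genes that were higher in follicular B cells hold a short sequence known from immunoglobulin genes. Vpreb3, an endoplasmic reticulum protein of the surrogate light chain family (chr10:75943057-75949657, mm10, plus strand, by GENCODE vM21), has the octamer ATGCAAAT, the binding site of the POU factors OCT1 and OCT2, in the opposite orientation, ending 37 bases before a RefSeq transcription start inside that interval. The same letters stand in the promoters of Ms4a4c, a membrane protein of the CD20 family, and of Chchd10, a mitochondrial protein, and all 3 genes were higher in the follicular than in the innate-led B cells. Cd22, the sialic acid-binding inhibitory receptor of B cells, holds instead the palindrome TCCCNNGGGA bound by EBF1. The 4 windows are shown because each belongs to a gene described below, and Chchd10 was chosen after its values were seen. Each is the 250 bases before the RefSeq start, on the strand of the gene, from RefSeq for GRCm38.p6: chr10:75948050-75948299 (plus strand) for Vpreb3, chr19:11407411-11407660 (plus) for Ms4a4c, chr10:75932880-75933129 (plus) for Chchd10 and chr7:30879029-30879278 (minus) for Cd22. Capitals mark the motif.
Vpreb3: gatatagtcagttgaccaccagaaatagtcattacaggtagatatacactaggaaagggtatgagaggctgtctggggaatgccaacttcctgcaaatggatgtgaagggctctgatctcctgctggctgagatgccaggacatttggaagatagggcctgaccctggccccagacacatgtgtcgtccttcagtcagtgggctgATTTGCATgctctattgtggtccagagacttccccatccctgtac
Ms4a4c: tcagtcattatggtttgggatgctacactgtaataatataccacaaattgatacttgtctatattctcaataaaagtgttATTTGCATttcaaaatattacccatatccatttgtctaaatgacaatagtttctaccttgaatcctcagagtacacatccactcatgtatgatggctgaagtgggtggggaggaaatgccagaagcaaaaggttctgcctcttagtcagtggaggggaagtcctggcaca
Chchd10: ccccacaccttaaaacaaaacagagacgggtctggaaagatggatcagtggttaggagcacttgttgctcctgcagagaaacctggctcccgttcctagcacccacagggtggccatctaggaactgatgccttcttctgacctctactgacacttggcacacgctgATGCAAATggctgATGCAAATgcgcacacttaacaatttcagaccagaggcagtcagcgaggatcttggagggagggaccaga
Cd22: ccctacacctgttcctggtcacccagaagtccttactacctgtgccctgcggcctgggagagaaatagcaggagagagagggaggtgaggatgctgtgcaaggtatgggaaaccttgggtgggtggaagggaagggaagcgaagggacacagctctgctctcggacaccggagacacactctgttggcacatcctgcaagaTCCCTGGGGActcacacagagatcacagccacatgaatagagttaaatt

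Searched on both strands over 300 bases around the start, the octamer stood in 6 of the 237 windows (2.53%) of the genes higher in follicular B cells than in non-B cells, namely those of Blnk, Chchd10, Cnr2, Ms4a4c, Prkcb and Vpreb3, and in 570 of all 32851 windows (1.74%). The EBF1 palindrome stood in 8 of the 237 windows (3.38%), including those of Cd22 and Foxo1, and in 297 of all windows (0.904%). Among the 49 windows of the genes higher than in innate-led B cells, 3 held the octamer (6.12%) and 0 the palindrome. Of the markers Ighd, Fcer2a, Vpreb3, Ebf1 and Fcmr, 4 were in the table, and 1 of their 7 windows, that of Vpreb3, held the octamer. These are matches of letters and not measured binding.

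Follicular B cells made up most of the gate in both libraries. They were 61.2% of the female gate cells (56.9% to 65.5%, 316 of 516) and 67.7% of the male (61.6% to 73.3%, 176 of 260), a difference of -6.45 percentage points with an interval from -13.3 to 0.741. Of all cells kept they were 8.28% in the female (7.42% to 9.20%) and 7.03% in the male library (6.06% to 8.11%), a difference of 1.24 points (-0.111 to 2.56). Both intervals held 0. That of the gate share did not under some other settings: the difference was -9.41 points (-17.2 to -1.11) with at most 5% mitochondrial UMIs, -7.66 (-14.6 to -0.34) with at least 500 genes and -12.6 (-20.2 to -4.50) with cells thinned to 1000 UMIs. It was -0.17 (-7.55 to 7.25) where Ighd and Fcer2a had to be strictly ahead with 2 or more UMIs. With 1 library per sex, sex and library cannot be told apart.

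The rule rests on few UMIs. The median sum of Ighd and Fcer2a was 4 UMIs in a female and 3 in a male follicular B cell, and the highest was 17 and 13. In 35 female and 28 male cells the sum was 1, in 20 and 19 it tied with the innate-like sum, and in 144 and 98 no innate-like UMI was present. Ighd (chr12:113406604-113416324), which the rule used, stood at 1277 and 1437 CPM and Fcer2a (chr8:3681737-3694175) at 349 and 397 CPM. Each library is given female first here and below.

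Just inside the rule, the 20 female and 19 male cells with a tie held Ebf1 at 2671 and 1818 CPM, S100a6 at 603 and 665 CPM and Plac8 at 1466 and 643 CPM. Just outside it, the 33 female and 17 male innate-led cells that were behind by 1 UMI held Ebf1 at 1409 and 1884 CPM, S100a6 at 2266 and 975 CPM and Plac8 at 1888 and 1364 CPM. No intervals were taken for these small groups, and male S100a6 rested on 30 UMIs in each. The cells behind by 1 were as shallow as the follicular ones, with a median of 2124 and 1620 UMIs, while those behind by 3 or more, 110 female and 34 male cells, had 6961 and 6588.5. Igkc was at 10147 and 13286 CPM in the cells behind by 1, close to the 12673 and 13725 CPM of the ties, and at 54350 and 61974 CPM in those behind by 3 or more.

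**Figure D1:**
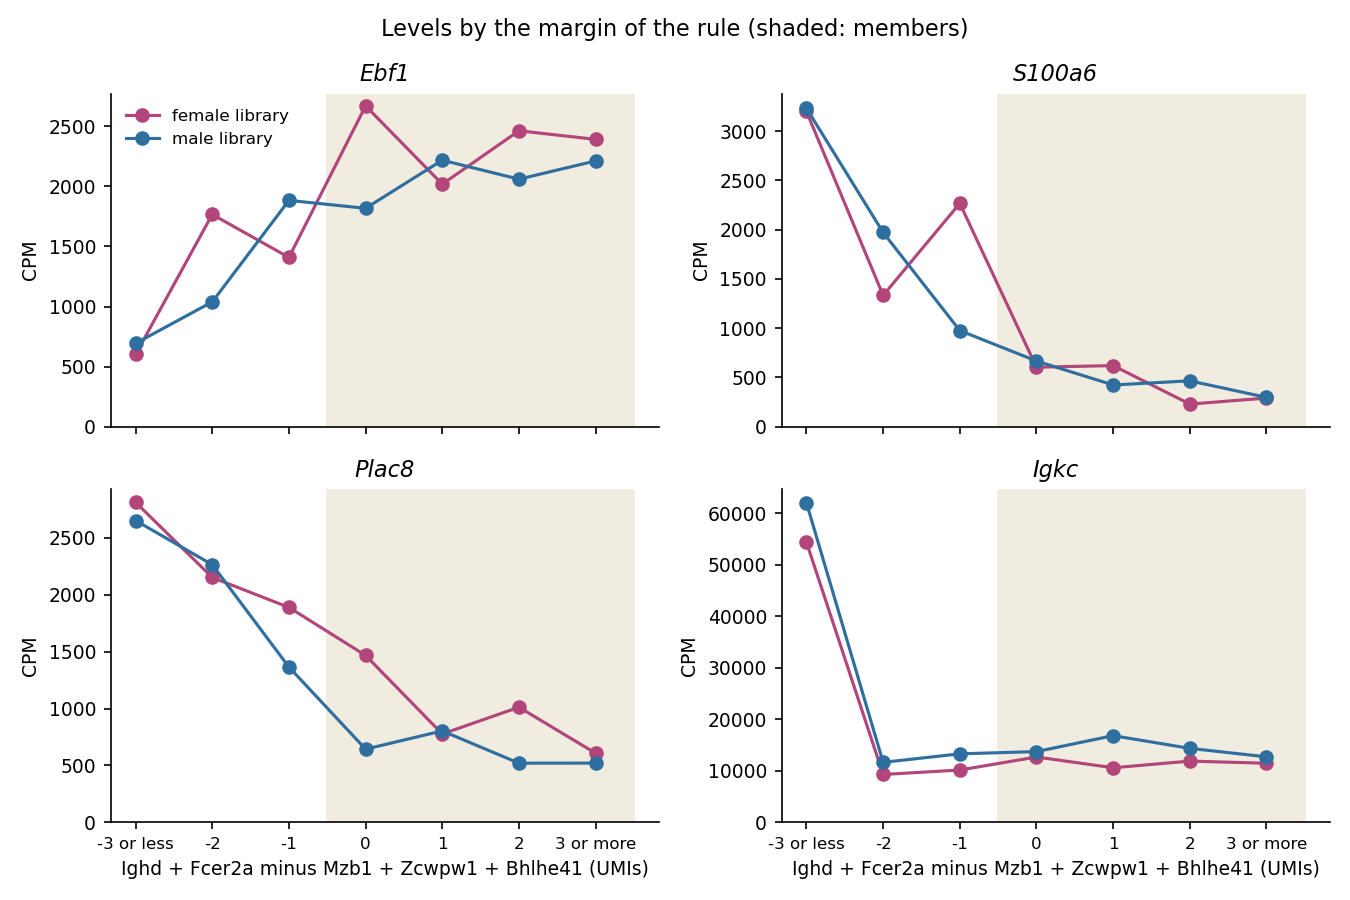
CPM of Ebf1, S100a6, Plac8 and Igkc (vertical axes, from 0) in gate cells grouped by how many UMIs Ighd and Fcer2a led or trailed Mzb1, Zcwpw1 and Bhlhe41 (horizontal axis), with 1 line per library and the follicular B cells shaded. S100a6 and Plac8 lay above the level of the ties in the cells behind by 1 in both libraries, but no intervals were taken. Male S100a6 rested on 30 UMIs in each of these groups, and female Plac8 on 185 UMIs behind by 1 and 73 in the ties. The high Igkc level stood only in the cells behind by 3 or more.

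Markers that the rule had not used are given first against non-B cells and then, further on, against the innate-led B cells. The non-B cells were picked for having no Cd79a or Cd79b UMI, so a large difference in B cell genes was built in. The markers were also chosen with earlier results of these data known, so these levels are a description and no check of the label. Ebf1, an early and lasting transcription factor of B cells (chr11:44617317-45008091), stood at 2343 CPM (2239 to 2451) and 2141 CPM (1991 to 2299) in follicular B cells and at 4.74 and 10.4 CPM in non-B cells. Fcmr, the receptor for the constant part of IgM (chr1:130865669-130880791), stood at 691 and 645 CPM against 1.69 and 0.251 CPM in non-B cells, and Vpreb3 at 378 and 439 CPM against 0.723 and 0.627 CPM. Both libraries were thus far above the non-B background for each, as innate-led B cells were too, with Fcmr at 293 and 391 CPM and Vpreb3 at 109 and 157 CPM. Ebf1 was detected in 98.1% and 90.9% of follicular B cells and in 1.47% and 2.00% of non-B cells. After every cell was thinned to 1000 UMIs, which left out 2 female and 5 male follicular B cells and 173 and 218 non-B cells, those shares were 85.7% and 78.4% against 0.390% and 1.17%. The pan-B genes Ms4a1 (CD20) and Pax5 were present as well, Ms4a1 at 1016 and 1113 CPM and Pax5 at 233 and 242 CPM, each at no more than 1.36 CPM in the non-B cells of either library. These values describe B cells, which the gate had already selected, and do not separate follicular from other B cells. Against innate-led B cells Ebf1 and Vpreb3 were called higher and Fcmr was not, as given below, so the name rests in the main on the genes of the rule.

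**Figure D2:**
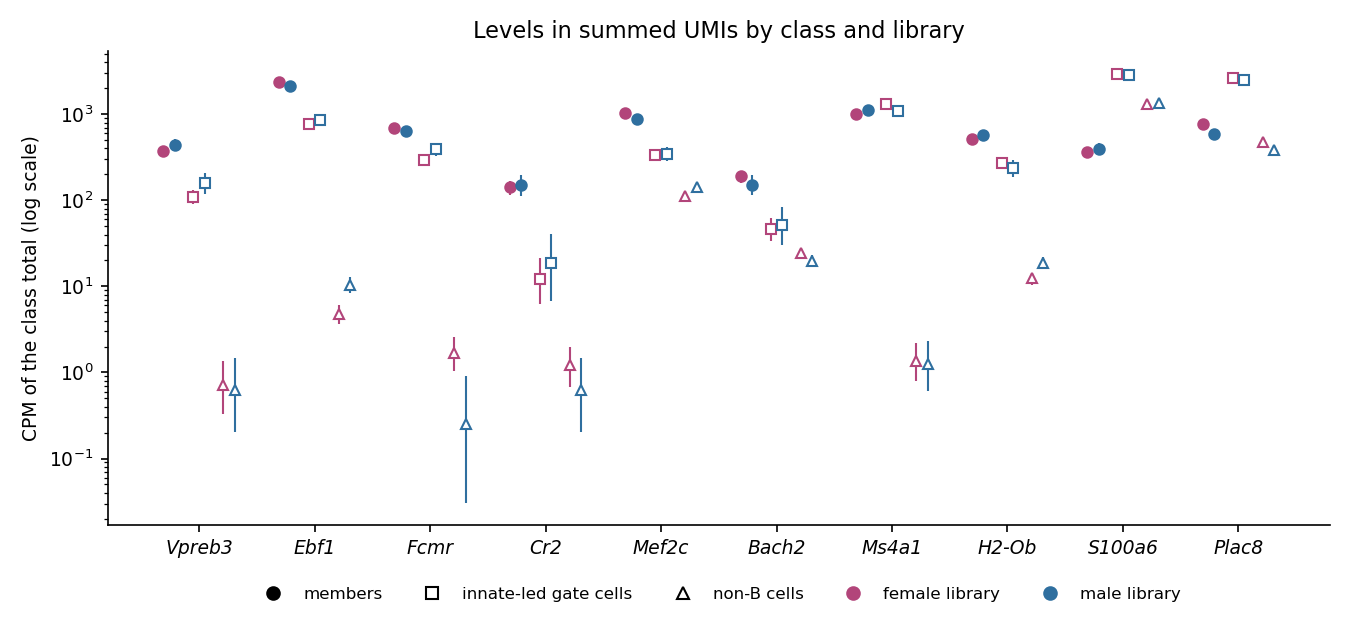
CPM on a log axis of genes that the rule did not use, in follicular B cells (filled circles, labelled members), innate-led B cells (squares) and non-B cells (triangles) of the female and male library, with exact Poisson 95% intervals as bars. Ebf1, Mef2c, Cr2 and Bach2 were highest in follicular B cells, Ms4a1 differed by less than 2-fold between the B cell classes, and S100a6 was lowest in follicular B cells.

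Against the innate-led B cells of the same glands, follicular B cells were higher in 6 of 13 measured genes of the follicular and recirculating list and in 4 of 15 B cell transcription factors, and lower in 4 of 5 genes of the B-1 list. Of 1546 genes with at least 50 UMIs in both classes together in each library, 44 (2.85%) had a ratio of at least 2 in both libraries and 20 (1.29%) a ratio of at most 0.5, the genes of the rule left aside. The classes differed over 2-fold in median depth, and with each cell thinned to 1000 UMIs before the gate 16 of the 44 and 5 of the 20 genes were still called, among 888 that could be compared. With at most 5% mitochondrial UMIs it was 19 and 13, among 970. The median log2 ratio over the 1546 genes was 0.18 in both libraries.

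Cr2, the complement receptor CD21 that lowers the threshold of B cell receptor signalling (chr1:195136811-195176716), led the higher genes. It stood at 141 CPM (117 to 169) and 149 CPM (112 to 195) in follicular B cells and at 12.1 and 18.5 CPM in innate-led ones, a ratio of 11.6 (6.41 to 23.2) in the female and 8.09 (3.48 to 23.0) in the male library. These counts were 115 and 53 UMIs against 12 and 6. Cr2 is high in marginal zone B cells too. Of the 11 genes of the marginal zone list outside the rule 3 were measured, of which Cr2 was higher, Plac8 lower, and Notch2, the receptor that directs marginal zone fate, not called at 196 and 239 CPM against 106 and 123 CPM.

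Ms4a4c followed at 288 and 287 CPM against 55.6 and 58.4 CPM, a ratio of 5.18 (3.85 to 7.09) and 4.92 (2.99 to 8.50). Chchd10 stood at 279 and 273 CPM against 85.0 and 111 CPM. Satb1, a chromatin organiser of lymphocytes, stood at 142 and 144 CPM against 20.2 and 30.8 CPM. Serpinb1a, an inhibitor of serine proteases, stood at 281 and 304 CPM against 56.7 and 111 CPM. These 4 genes were picked from those called higher in both libraries, so it follows from the choice that both libraries lay on the same side. Their Poisson intervals did not overlap between the classes, which the choice also favours. Brwd1, a chromatin reader of B cell development, Rhoh, a GTPase of blood cells, Pxk, a kinase-like protein of B cell receptor internalisation, Sgms1, a sphingomyelin synthase, Dmxl1, a subunit of the machinery that acidifies vesicles, and BE692007 completed the genes that the rule for naming took, with log2 ratios between 1.34 and 2.08 in either library.

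Of the follicular and recirculating list, 13 genes outside the rule were measured, and 6 were called higher and 0 lower, with a median log2 ratio of 1.21 and 1.05. Ccr7, the chemokine receptor for entry into lymphoid tissue, stood at 183 and 175 CPM against 37.4 and 64.6 CPM. Cxcr4, the receptor for CXCL12, stood at 182 and 219.7 CPM against 56.7 and 79.95 CPM. Cd55, which protects cells from complement, stood at 399 and 414 CPM against 146 and 197 CPM. Vpreb3 was 3.46 (2.77 to 4.35) and 2.80 (2.03 to 3.92) times as high as in innate-led B cells by the summed UMIs. Per 1000 UMIs of a cell its mean was 0.46 and 0.47 UMIs in follicular and 0.23 and 0.38 in innate-led B cells, a smaller difference than by the sums in both libraries. It was high in shallow innate-led cells too, at 429 and 1072 CPM in those behind by 1 UMI and 551 and 26.6 CPM in those behind by 2, and at 28.3 and 66.2 CPM in those behind by 3 or more.

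Cxcr5, S1pr1 and Klf2 of the same list differed by less than 2-fold between the B cell classes. Cxcr5, the receptor for the follicle chemokine CXCL13, was at 73.7 and 95.8 CPM against 90.04 and 79.95 CPM. S1pr1, the receptor that lets lymphocytes leave tissue, was at 174 and 194 CPM against 172 and 185 CPM, and Klf2, the transcription factor that drives S1pr1, at 883 and 882 CPM against 771 and 843 CPM. Fcmr, though a marker of the label, had a log2 ratio of 1.21 in the female and 0.71 in the male library and was not called.

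Of the 15 measured B cell transcription factors 4 were called higher and 0 lower. Ebf1 was 3.03 (2.79 to 3.30) and 2.53 (2.20 to 2.92) times as high as in innate-led B cells. Mef2c, a factor of B cell survival and proliferation, stood at 1039.7 and 890.2 CPM against 332 and 347 CPM, and Bach2, which restrains plasma cell formation, at 189 and 152 CPM against 46.5 and 52.3 CPM. Irf8 stood at 209.9 and 200.02 CPM against 84.0 and 89.2 CPM. Pax5, the factor of B cell commitment, was at 233 and 242 CPM against 133 and 141 CPM and was not called, and Spib and Pou2af1 had log2 ratios between -0.23 and 0.36.

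**Figure D3:**
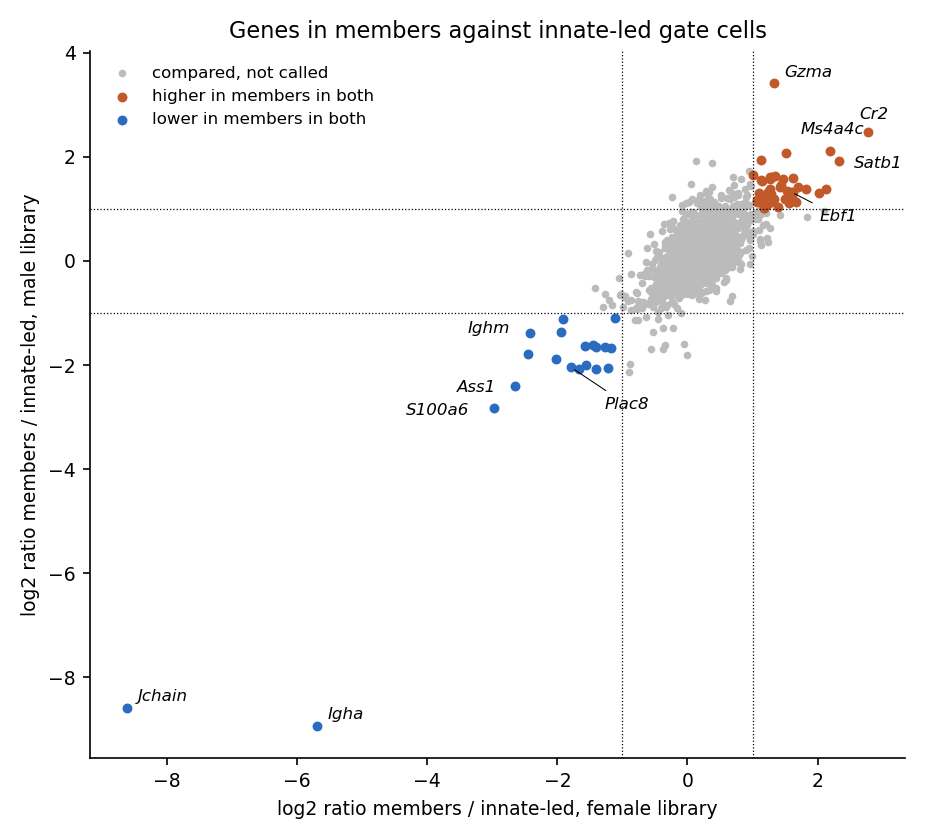
Log2 ratio of CPM (10 CPM added) between follicular B cells, labelled members, and innate-led B cells for 1546 genes, female library on the horizontal and male library on the vertical axis, with dotted lines at a 2-fold difference. The 44 genes higher in both libraries include Cr2, Ms4a4c, Satb1 and Ebf1, and among the 20 lower genes Jchain and Igha lie far from the rest.

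Innate-led B cells carried more of the genes linked to B-1 cells. Of 5 measured genes of the B-1 list that the rule had not used, 4 were lower in follicular B cells and 0 higher. S100a6, a calcium-binding protein of the cytoskeleton, was at 367 and 394 CPM in follicular B cells, 2959 and 2872 CPM in innate-led ones and 1304 and 1348 CPM in non-B cells, so the innate-led level was 8.06 and 7.28 times as high. After thinning, 8.60% and 12.9% of follicular B cells held an S100a6 UMI, against 63.5% and 45.9% of innate-led and 45.8% and 42.5% of non-B cells, and without thinning these shares were 18.0% and 19.9%, 70.4% and 55.6%, and 61.3% and 51.7%. The follicular share was the lowest of the 3 classes in both libraries.

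Vim, the intermediate filament vimentin, was at 322 and 304 CPM against 977 and 972 CPM in innate-led B cells, Ahnak, a large scaffold protein, at 131 and 121 CPM against 533 and 326 CPM, and Lgals1, galectin-1, at 241 and 127 CPM against 596 and 421 CPM. Plac8 was 3.49 and 4.18 times as high in innate-led B cells. Monocytes express Plac8 as well, and the female innate-led B cells held 4 other monocyte markers at 413 CPM and the neutrophil markers at 1658 CPM, against 123 and 22.1 CPM in the female follicular B cells. Of those innate-led UMIs 82.6% and 99.7% lay in 5 cells. In the male library the innate-led B cells held these markers at 24.6 and 15.4 CPM, on only 8 and 5 UMIs, against 39.4 and 25.4 CPM. The cause of the Plac8 difference was not tested. Without barcodes that held 3 or more NK, monocyte or neutrophil UMIs, left out after the markers had been seen, 17 of the 20 lower genes were still called. Ass1, the argininosuccinate synthase of the urea cycle, had 12 and 7 UMIs in follicular B cells and 143 and 48 in innate-led ones. Itgb1, the integrin beta 1 chain of adhesion, was at 65.1 and 31.0 CPM against 159 and 119.9 CPM, and the cell cycle gene Ccnd2 at 94.5 and 50.7 CPM against 299 and 234 CPM. Cd5, a surface marker of B-1a cells, had 2 and 1 UMIs in follicular and 8 and 4 in innate-led B cells, too few to compare.

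The genes of antibody secretion differed through a handful of cells. Jchain, which links IgM and IgA into polymers, had 0 UMIs in the female and 5 in the male follicular B cells, against 3848 and 3008 UMIs in innate-led B cells, and the female innate-led level was at least 1057-fold higher than a floor of 3 counts. Of the innate-led Jchain UMIs 99.4% and 100% lay in 5 cells. Igha, the IgA heavy chain, had 7 and 8 UMIs in follicular B cells and 937 and 5164 in innate-led ones, 99.3% and 99.96% of them in 5 cells. Tnfrsf17, the survival receptor of plasma cells, had 0 UMIs in the follicular B cells of either library.

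Igkc and Ighm, the kappa and IgM constant regions, were called lower by their sums but not in the typical cell. Igkc was at 11422 and 13934 CPM in follicular B cells and 46409 and 51552 CPM in innate-led ones, where 5 cells held 79.6% and 84.5% of its UMIs. Among 1000 UMIs per cell, the median Igkc count was 12.5 and 13 in follicular and 11 and 11 in innate-led B cells. Ighm was at 2622 and 3274 CPM against 14139 and 8527 CPM, with 75.1% and 66.1% of the innate-led UMIs in 5 cells and a median of 3 and 3 against 3 and 4 per 1000 UMIs. Where the cells were thinned before the gate was applied, Igkc turned to log2 ratios of 0.24 and 0.21.

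Gzma, the granzyme A of natural killer (NK) cells, was called higher in follicular B cells at 839.6 and 262 CPM against 327 and 15.4 CPM, but 5 cells held 82.7% and 97.8% of its follicular UMIs. Ncr1, Klrb1c, Prf1, Gzmb and Nkg7, fixed as NK markers, summed to 3 or more UMIs in 12 of 316 female and 2 of 176 male follicular B cells, and these barcodes held 97.7% and 89.7% of the NK marker UMIs of the class. Their median depth was 7748.5 and 5116.5 UMIs, against 2027 and 1653 in the rest. Such barcodes were left out from all gate cells after the markers had been seen. Without them, 41 of the 44 higher and 19 of the 20 lower genes were still called. Gzma then kept 21 and 5 UMIs in follicular B cells, and its male log2 ratio of -0.05 rests on too few UMIs to compare. Ccl5, a chemokine of NK and T cells, was called higher as well, at 1105 and 206 CPM against 498 and 46.1 CPM. With the NK marker barcodes left out, only 50 and 15 Ccl5 UMIs remained in follicular B cells.

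Against non-B cells, follicular B cells showed the receptor, the coreceptors and the factors of mature B cells together. Of 9485 genes compared, 224 (2.36%) were higher and 953 (10.0%) lower in both libraries, with a median log2 ratio of -0.21 and -0.28 over all genes. Of the 14 measured genes of the B cell receptor and its signalling outside the rule, 11 were higher and 0 lower. Bank1, a scaffold that links the receptor to calcium release, stood at 498 and 589 CPM against 7.87 and 15.2 CPM, and the kinases Blk, Btk and Syk were higher as well, Blk at 122 and 109.9 CPM against 0.482 and 3.39 CPM. Lyn, the kinase that opens and also restrains receptor signalling, was at 183 and 225 CPM against 163 and 196 CPM and was not called.

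Of 13 coreceptors and inhibitory receptors 7 were higher and 1 lower. Cd22 stood at 146 and 206 CPM against 2.89 and 4.39 CPM, Siglecg, a related inhibitory lectin, at 228 and 256 CPM against 2.97 and 3.26 CPM, and Cd37, a tetraspanin, at 992 and 966 CPM against 198 and 176 CPM. Lair1, a collagen receptor, had 6 and 1 UMIs and stood at 108 and 149 CPM in non-B cells. Fcgr2b, the inhibitory Fc receptor, was at 55.2 and 42.3 CPM against 105 and 140.4 CPM, which did not pass the fold in the female library.

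Of 17 transcription factors 12 were higher and 0 lower. Foxo1, a factor of homing and survival genes, stood at 119 and 109.9 CPM against 39.7 and 33.9 CPM, and Bcl11a at 298 and 352 CPM against 11.7 and 11.5 CPM. Spi1, the factor PU.1 shared with myeloid cells, was at 85.9 and 78.9 CPM against 165 and 227 CPM and was not called. Of the follicular list, 12 of 13 genes were higher, the exception being Cxcr4.

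Among the receptors for survival signals, Tnfrsf13c, the BAFF receptor, stood at 149.8 and 180.3 CPM against 4.42 and 3.14 CPM, Tnfrsf13b, which encodes TACI, at 199 and 192 CPM against 29.5 and 35.0 CPM, and Cd40 at 38.1 and 50.7 CPM against 4.90 and 8.28 CPM. Bcl2l1, which encodes BCL-XL, was lower, with 3 and 1 UMIs, and 0 of the other measured genes of the list were called lower. Bcl2 stood at 182 and 152 CPM against 342 and 260 CPM.

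MHC class II genes were abundant but not particular to follicular B cells, since dendritic cells and macrophages among the non-B cells express them too. Cd74, the invariant chain, was at 10951 and 12564 CPM in follicular B cells, 7454 and 8008 CPM in innate-led B cells, and 5344 and 10258 CPM in non-B cells. H2-Aa was at 4023 and 4651 CPM against 2331 and 2448 CPM in innate-led B cells. Of 12 genes of antigen presentation, 4 were higher and 2 lower than in non-B cells. The higher ones were H2-Ob and H2-Oa, the chains of the DO molecule that modulates peptide loading in B cells, H2-DMb2, and Ciita, the master activator of MHC class II genes. H2-Ob stood at 509 and 566 CPM against 12.4 and 18.6 CPM. The lower ones were H2-DMb1, at 68.7 and 101.4 CPM against 195 and 356 CPM, and the lysosomal protease Ctss, which cleaves the invariant chain, at 368 and 335 CPM against 848 and 985 CPM. Only Ciita of the 11 genes measured against innate-led B cells was called there, at 176 and 177 CPM against 68.8 and 64.6 CPM.

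Several transcripts that define other B cell stages were not seen. Rag1, Rag2, Dntt and Igll1, which mark B cell precursors, and S1pr2 and Nuggc of germinal centre cells had 0 UMIs in both libraries, as had the proliferation genes Mki67 and Ccna2, and Tlr9. A count of 0 allows up to 3.68 CPM in the female and 8.45 CPM in the male follicular B cells. Cd93, a marker of transitional B cells, had 5 and 2 UMIs, and stood at 79.2 and 99.7 CPM in non-B cells. Cd24a, which falls as B cells mature, was at 249 and 316 CPM, against 247 and 338 CPM in innate-led B cells, and was higher than in non-B cells, at 37.7 and 62.2 CPM. Txndc5, a protein disulfide isomerase on the plasma cell list, was also higher than in non-B cells, at 97.0 and 146 CPM against 30.7 and 36.5 CPM, and Xbp1 and Prdm1 of that list were lower.

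On the remaining 8 lists few genes were called higher. Of 15 activation and immediate early genes Cd69 was higher than in non-B cells, at 372 and 304 CPM with a ratio of 3.68 and 4.3, and Fos, Jun, Nr4a1 and Dusp1 were lower. Against innate-led B cells Fosb was the only gene called of the 10 of that list that were compared. It was lower, with 33 and 10 UMIs against 149 and 49. Of 8 genes of the glucocorticoid receptor and its induced set, which bear on a gland that makes corticosterone, 0 were higher and Ddit4, Klf9, Zbtb16 and Dusp1 were lower than in non-B cells. Nr3c1, the receptor itself, was at 76.1 and 76.1 CPM against 78.4 and 93.1 CPM. Tsc22d3, the best known induced gene (GILZ), was at 584 and 580.3 CPM against 292 and 217 CPM, which passed the fold in the male library only, and Fkbp5 was at 19.6 and 19.7 CPM against 97.9 and 46.0 CPM, which passed it in the female library only.

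The other lists gave these counts against non-B cells. Of the memory and age-associated list, Cd38 of 9 measured genes was higher and Cd27, Tbx21, Itgax and Cxcr3 were lower. Of the migration list, S1pr4 of 9 was higher and the integrins Itgb1, Itgal and Itgb2 and the hyaluronan receptor Cd44 were lower. Of the interferon list, Ly6a of 10 was higher and Isg15 and Bst2 were lower. Of the cytokine list, Ltb of 4, which encodes lymphotoxin beta, was higher at 810.2 and 699 CPM against 296 and 279 CPM, and Tnf was lower. Of 8 toll-like receptor genes 0 were higher and Tlr2 was lower, and of 4 cycling genes Mki67 and Top2a were lower. Against innate-led B cells far fewer genes of these lists could be compared. They were 1 of the memory, 5 of the migration, 4 of the interferon, 2 of the cytokine, 3 of the toll-like receptor and 0 of the cycling list. Only Itgb1 was called, and with 2.85% and 1.29% of all genes called, so few genes would hold few calls or none.

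Nearly every follicular B cell carried unswitched heavy chain transcripts. Ighm was detected in 98.1% and 99.4% of the cells, and in 46.6% and 42.3% of the deeper non-B cells. Thinned to 1000 UMIs, these shares were 90.8% and 93.6% against 17.3% and 17.5%. Ighm and Ighd were found together in 94.0% and 94.3% of follicular and in 35.5% and 34.9% of innate-led B cells, a difference that the rule fixes since it uses Ighd. At least 1 UMI of a switched isotype was seen in 11 female and 6 male follicular B cells, and 3 or more in 0 and 1. Ighg1, Ighg2c and Ighe had 0 UMIs.

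Most follicular B cells carried UMIs of both light chain types, although a mature B cell as a rule makes 1 functional light chain. Among the 314 female and 175 male cells with at least 5 light chain UMIs, Igkc made up a median share of 0.739 and 0.770 of the UMIs of Igkc, Iglc1, Iglc2 and Iglc3. The share lay between 0.3 and 0.9 in 268 (85.4%) and 155 (88.6%) of them, over 0.9 in 24 and 15 and under 0.1 in 13 and 3. Innate-led B cells gave 81.9% and 85.7% between 0.3 and 0.9. Mixed light chain counts were thus common in both B cell classes.

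The lambda counts were not spread over all cells of the libraries. Iglc2 had a mean of 2.45 ± 2.32 and 2.44 ± 2.40 UMIs (SD over cells) per 1000 in follicular B cells and 0.0110 and 0.00692 in non-B cells. Iglc2 and Iglc3 are close copies of each other, so how UMIs were divided between them is uncertain, but their sum was 0 in only 5 female and 1 male follicular B cell. Iglc1 behaved otherwise. It had 0 UMIs in 155 and 107 cells, and 10 or more in 21 and 7 cells that held 54.8% and 47.4% of all its UMIs. In those cells the median Igkc count was 7 and 20, against 28 and 23 in the rest, while the median sum of Iglc2 and Iglc3 was 8 and 11 against 8 and 7. The part of the 12 and 2 barcodes with NK markers in these shares was not tested.

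**Figure D4:**
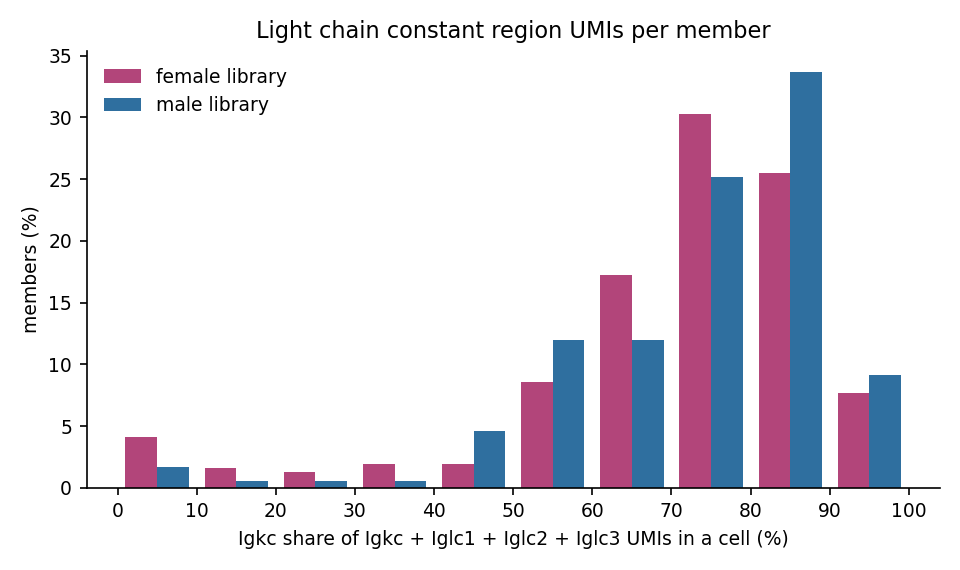
Share of Igkc among the UMIs of Igkc, Iglc1, Iglc2 and Iglc3 in each follicular B cell with at least 5 such UMIs (horizontal axis, 10 bins) and the percentage of cells in each bin (vertical axis) for the 314 female and 175 male cells. In both libraries the largest group lies between 70 and 90, and 13 and 3 cells lie under 10.

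Within the class, most genes had a ratio of variance to mean near 1 among cells thinned to 1000 UMIs. Of 461 genes with a mean of at least 0.2 UMIs per 1000 in both libraries, the median ratio was 1.11 and 1.12 and the 90th percentile 1.44 and 1.47, where counting alone gives about 1. At such low means, moderate differences between cells raise this ratio little, so a value near 1 does not show that the cells were alike. Malat1, a nuclear noncoding RNA, led with 10.05 and 7.98, followed by Iglc1 with 6.15 and 4.88 and Igkc with 5.20 and 4.59. Ifi27l2a, an interferon-inducible gene, had 3.10 and 3.10, and the cytoskeletal gene Actb 3.16 and 2.70. Of the markers, Ebf1 varied by 1.63 and 1.61, with a mean of 2.61 ± 2.06 and 2.27 ± 1.92 UMIs per 1000 (SD over cells), and Vpreb3 by 1.67 and 2.48. Plac8, lower than in innate-led B cells as a class, varied by 2.26 and 1.69.

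Few genes differed by 2-fold or more between female and male follicular B cells. Across 2868 genes with at least 50 UMIs in both together, log2(CPM + 10) had a Pearson r of 0.960 between the libraries, a description across genes, which are not independent replicates. A ratio of at least 2 was seen for 36 genes (1.26%) higher in the female cells and a ratio of at most 0.5 for 7 (0.244%). The median log2 ratio was 0.02. With cells thinned to 1000 UMIs, 6 of the 36 and 3 of the 7 were still called, among 1964 genes compared. Where Ighd and Fcer2a had to be strictly ahead with 2 or more UMIs, it was 16 and 4, among 2380. Of the lists, 0 genes were called among 14 compared of the B cell receptor, 11 of the coreceptor and 17 of the transcription factor list. The same held for 14 genes of the follicular, 6 of the B-1 and 12 of the antigen presentation list. At shares of 1.26% and 0.244% over all genes, lists of this size would hold few calls or none. Vpreb3 had a ratio of 0.860 (0.707 to 1.05), Fcmr of 1.07 (0.917 to 1.25), Cr2 of 0.945 (0.677 to 1.34) and Ebf1 of 1.09 (1.01 to 1.19).

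Apart from Xist, the leading genes higher in the female cells included several that NK cells express, and 2 of the 4 compared NK markers, Gzmb and Nkg7, were called. Xcl1, a chemokine of NK cells, stood at 279.9 CPM in the female and 25.4 CPM in the male cells, with 94.7% of the female UMIs in 5 cells. Ccl5 stood at 1105 and 206 CPM with 71.7% in 5 cells, Nkg7, a granule protein, at 249 and 70.4 CPM with 65.0% in 5 cells, and Gzma at 839.6 and 262 CPM. Cd7, Klrk1, Klre1, the transcription factor Id2 and the monocyte receptor Ccr2 made up the rest of the leading names. Apart from Ccr2, the values of these genes moved with the 12 female and 2 male barcodes that held 3 or more NK marker UMIs. The summed NK markers reached 536 CPM in the female and 192 CPM in the male follicular B cells and 2384 and 1770 CPM in non-B cells, and 0 of the 5 markers were at 0 in either library.

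Without those barcodes, 11 of the 36 genes and 4 of the 7 were still called, and 12 and 6 genes were called in all among 2519 compared. Some lost calls ended because fewer than 50 UMIs remained, while March2 went from a log2 ratio of 1.16 to 1.35 and Rps6ka3 from 1.03 to 1.08. Ccr2 went from 1.62 to 1.32 on 36 and 5 UMIs. It went to -0.92, on no more UMIs than these, where barcodes with monocyte or neutrophil markers were left out as well. Both values rest on too few UMIs to compare. Trbc1 kept 8 and 0 UMIs, too few to compare. The lost lower genes stayed close to the 2-fold limit, Rpl9-ps6 at -0.998, Sdhc at -0.96 and Slc4a7 at -0.98. Xcl1 fell to 6 and 2 UMIs and Nkg7 to 7 and 5. Cd7 kept 1 and 4, Klrk1 1 and 1, and Car2, a carbonic anhydrase, 13 and 7 UMIs. The log2 ratios of Nkg7, Cd7, Klrk1 and Car2 were then -0.30, -0.92, -0.18 and -0.09. With so few UMIs their direction cannot be read. Still higher in the female cells were Xist, Ubxn4, Kcnq1ot1, Etfb, Sike1, Ciao2a, Vti1b, H2-Eb2, Cnih4, Vps13a and Retnla. H2-Eb2, an MHC class II beta chain gene, had 70 UMIs in 52 female cells and 13 UMIs in 12 male cells, 85.9 against 36.6 CPM, a ratio of 2.35 (1.29 to 4.62). In innate-led B cells it went the other way, with 14 and 8 UMIs and a log2 ratio of -0.52, and it stood at 0.642 and 0.502 CPM in non-B cells. Retnla, a secreted protein of macrophages, had 92.8% of its female UMIs in 5 cells. In non-B cells Retnla went the other way, at 532 CPM in the female and 1593 CPM in the male library. Of the 36 genes only Xist, and of the 7 genes 0, passed a 2-fold difference in the same direction between the female and male non-B cells. In innate-led B cells more of them passed it, among them Gzma, Ccl5 and Nkg7 with log2 ratios of 3.73, 3.18 and 2.62. Those ratios keep the innate-led barcodes with NK markers. The female innate-led B cells held 216 NK marker UMIs, 94.4% of them in 5 cells, and the male ones held 6. Of the 7 genes, Wdr89 at -1.16 and Rpl36a-ps1 at -1.07 passed a 2-fold difference in innate-led B cells. Ubxn4, Etfb and Retnla went the other way there, at -0.39, -0.56 and -0.72.

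The 7 genes lower in the female cells were Wdr89, Rpl36a-ps1, Slc4a7, Susd6, Aamp, Sdhc and Rpl9-ps6. Wdr89, a protein with WD repeats, had 50 UMIs in 46 of the female and 59 UMIs in 47 of the male cells, 61.4 against 166 CPM, a ratio of 0.369 (0.248 to 0.548). It was also lower in the female than in the male innate-led B cells, with a log2 ratio of -1.16, and non-B cells, with -0.86. Rpl36a-ps1 and Rpl9-ps6 are ribosomal pseudogenes that share sequence with their parent genes, so their counts are uncertain.

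**Figure D5:**
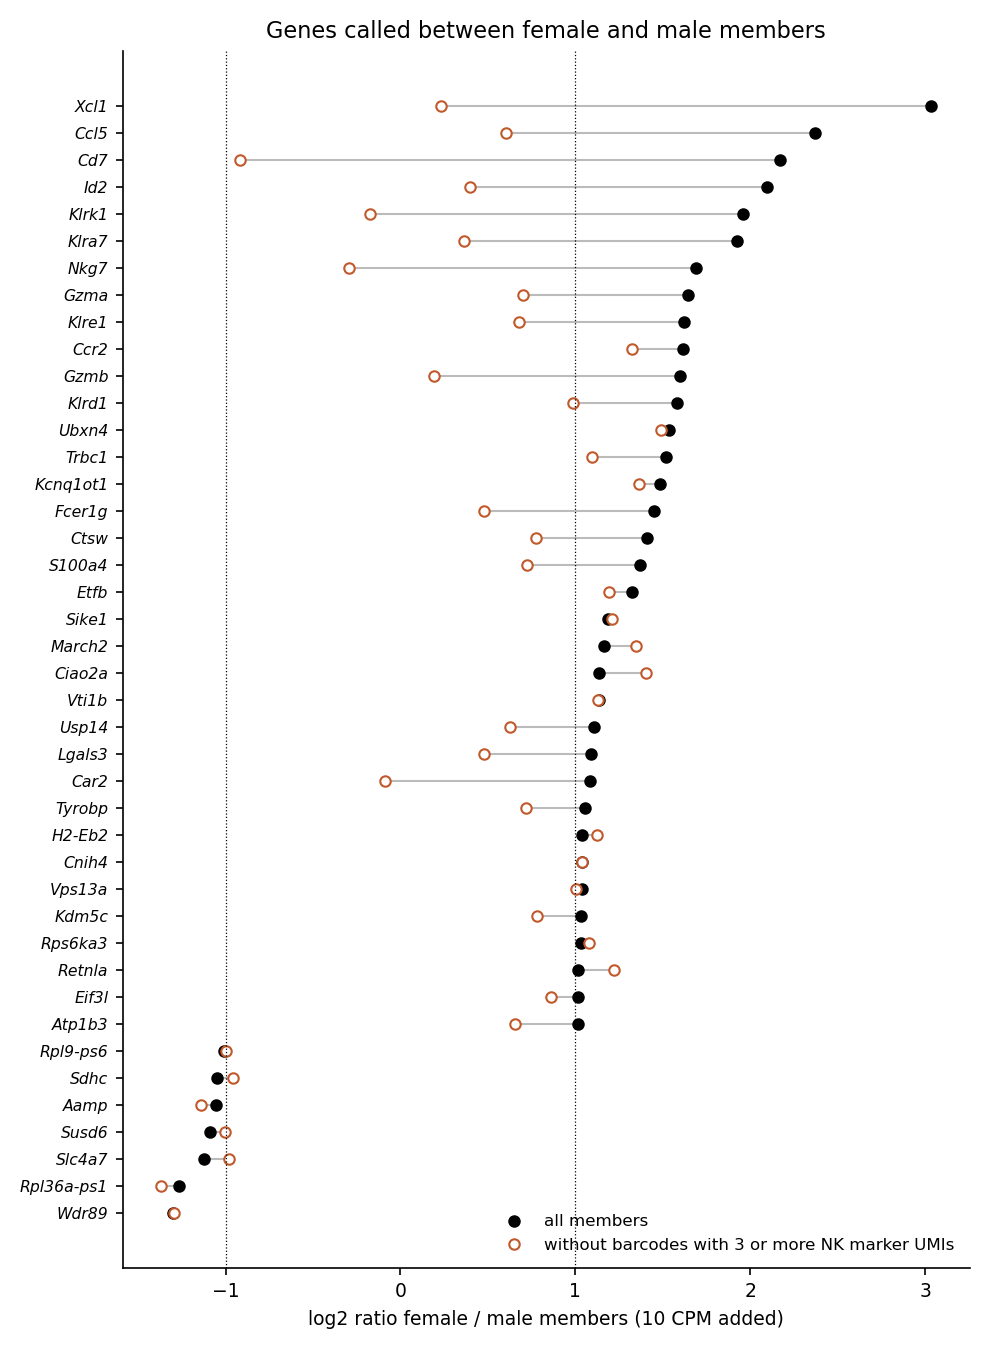
Log2 ratio of female to male follicular B cells, labelled members (horizontal axis, 10 CPM added), for the 42 autosomal and X-linked genes called at a 2-fold difference other than Xist, with all cells (filled) and without the barcodes that held 3 or more NK marker UMIs (open). A gene with fewer than 50 UMIs left is drawn but no longer counted as called. The open circles of Nkg7, Cd7, Klrk1 and Car2 lie below 0 but rest on fewer than 50 UMIs each, too few to read a direction. The open circles of Ubxn4, Kcnq1ot1 and H2-Eb2 stay above 1.

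Apart from the endothelial list, markers of other cells were otherwise low in follicular B cells. The summed neutrophil markers stood at 22.1 and 25.4 CPM, against 1083 and 1565 CPM in non-B cells, those of the adrenal cortex at 34.4 and 56.3 CPM against 109 and 126 CPM, and those of chromaffin cells of the medulla gave 0 and 1 UMI. The macrophage markers, limited by the gate, stood at 100.7 and 135 CPM against 4237 and 5912 CPM, with 0 of the 6 genes at 0. The endothelial list stood at 108 and 135 CPM against 90.001 and 142 CPM. Pecam1, an adhesion molecule of many leukocytes, stood at 102 and 124 CPM and was its only gene higher than in non-B cells. The 6 T cell markers, some limited by the gate, summed to 37 and 3 UMIs with 2 and 4 of them at 0, and 4 monocyte markers to 123 and 39.4 CPM with 0 and 2 at 0. The plasmacytoid dendritic markers gave 68 and 25 UMIs, at 83.5 and 70.4 CPM against 247 and 286 CPM in non-B cells. The dendritic and red cell markers gave 3 and 2, and 4 and 3 UMIs.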

How the data were processed

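The deposited files hold UMI counts per gene and barcode. Per the labels, the authors made these counts with Cell Ranger 4.0.0 from 3.1 chemistry libraries, removed noise barcodes with DropletUtils 1.4.3 and used Seurat 3.1.0. The build in the submitters' processing notes is mm10, and the annotation is not given in the sources used here. Gene positions are from GENCODE vM21, which matched 32158 of 32285 genes.

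Counts were summed over the cells of a class in Python 3.11.15 with numpy 2.4.6, scipy 1.17.1 and pandas 2.3.3. A gene was compared where both classes together held at least 50 UMIs in each library and was called where the CPM ratio, with 10 CPM added, was at least 2 or at most 0.5 in both libraries. Between the sexes, a single ratio was used. The 13 genes of the rule were set apart. Named genes were those of the lists and, by the smaller ratio of the libraries, the 15 highest and lowest (10 between the sexes, in at least 10 cells). Further genes named by their motif or call were chosen after their values were seen. The members and lists were chosen with earlier results of these data known. The scripts were tested on simulated data. Doublets were kept. As an alternative, the highest Scrublet scores were removed with scanpy 1.11.5, 126 female and 58 male barcodes, among them 10 and 1 follicular B cells. Other alternatives changed the mitochondrial ceiling, the minimum of genes, the gate, the membership rule, depth, the CPM denominator, the added CPM and the count minimum. With few UMIs per cell, sums over 316 and 176 cells set the precision. The study's methods state a mitochondrial ceiling of 1.2%. Its scale is uncertain. Read as percent of UMIs it would have left 0 female and 11 male follicular B cells, so it was tried only as an alternative. Some genes are not reported here.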

Additional observations from a re-analysis of the deposited data

How the results depend on the processing

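Of the 105 alternative values of shares and counts of genes, 72 kept their place and 33 moved. Of those of single genes, 1451 were unchanged within their spread, 182 moved and 18 changed direction. Some of those 18, such as Cd7 and Klrk1 without the NK marker barcodes, rest on too few UMIs to read a direction. A count near the main one need not hold the same genes. Of the 44 genes higher than in innate-led B cells, 19 were still called with at most 5% mitochondrial UMIs, 16 after thinning, 38 with strict membership and 21 with no Cd3 or C1q UMI, and of the 20 lower genes 13, 5, 19 and 12. The shares of follicular B cells depend on where the limits are set. With at most 5% mitochondrial UMIs they were 65.6% and 75% of the gate and 6.65% of the female cells kept, and the male ratio of Ptpn22 against innate-led B cells was 0.14 on the log2 scale. With at most 1.2%, read as percent of UMIs, 0 female and 11 male follicular B cells remained. The gate and kept shares were then 0% for the female library, and the kept share was 3.06% for the male. With no female cell no ratio could be formed in the female library, so no gene could be called. With no Cd3 or C1q UMI allowed the shares of cells kept were 7.02% and 5.80%, and 21 genes were higher than in innate-led B cells. With Ighd and Fcer2a at 2 or more UMIs and strictly ahead, the gate shares were 52.5% and 52.7% and those of cells kept 7.10% and 5.48%.

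With cells thinned to 1000 UMIs before the gate, the female shares were 56.8% and 6.35%, 17 genes were higher and 8 lower than in innate-led B cells, and 14 were higher in female cells. There the log2 ratio against innate-led B cells was -2.22 for Gzma and 0.40 for Igha in the female library and 0.24 and 0.21 for Igkc, and the female to male ratio was -0.60 for Cd7, -0.44 for Klrk1 and -0.25 for Ccr2. With 50 CPM added, 18 genes were higher than in innate-led B cells and 103 than in non-B cells, and 12 were higher and 1 lower in female cells. With at least 200 UMIs required the counts were 8 higher and 8 lower than in innate-led B cells, 130 higher than in non-B cells, and 8 higher and 2 lower in female cells, and with at least 1 UMI they were 105 and 97, then 195 and 92 between the sexes. Fewer or more genes entered those counts.

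Leaving out barcodes with 3 NK marker UMIs, chosen after seeing the data, left 12 genes higher in female cells. The log2 ratio of Gzma against innate-led B cells was then -0.050 in the male library, with 5 UMIs in follicular B cells. The female to male ratio was -0.92 for Cd7, -0.18 for Klrk1 and -0.30 for Nkg7. These rest on 1 and 4, 1 and 1, and 7 and 5 UMIs, too few to compare. Leaving out barcodes with monocyte or neutrophil markers as well, also chosen after seeing the data, left 9. Gzma was then at -0.11 and -0.050, Cd7 at -0.91, Klrk1 at -0.37, Nkg7 at -0.38 and Ccr2 at -0.92. The values of Cd7, Klrk1, Nkg7 and Ccr2 again rest on too few UMIs to compare. The cause of the other changes was not tested. No paired analysis was possible because each sex had a single library.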

Other observations

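The 31 female and 21 male gate cells without a UMI of Ighd, Fcer2a or the innate-like genes belong to no comparison above. Their median depth was 1740 and 1267 UMIs. Among cells of at least 1000 UMIs thinned to that depth, 26 female and 15 male cells held Ebf1 at a mean of 2.65 ± 3.27 and 3.67 ± 3.62 UMIs (SD over cells), where follicular B cells had 2.61 ± 2.06 and 2.27 ± 1.92. S100a6 had a mean of 1.46 ± 2.20 and 0.20 ± 0.56 UMIs in them, against 0.12 ± 0.43 and 0.27 ± 0.89 in follicular B cells. Ighm was detected in 30 of the 31 and 20 of the 21.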
